A study of Homo sapiens with 3 samples.

Results

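The genes described are the protein-coding olfactory receptor genes of chromosome 11. They were taken by symbol (OR, a family number, subfamily letters and a member number) from the gene annotation of RefSeq (GRCh38.p14), and 171 genes fitted. Of these, 168 have a position on the main chromosome, against 19866 protein-coding genes in all. The other 3, OR8U8, OR8U9 and OR9G9, are listed outside the ordered rows of the main chromosomes with positions counted on another scaffold, so they have no position that the peak list can be compared with. The cells were hCMEC/D3, endothelial cells of human brain capillaries kept as an immortalized line, which per the labels were untreated and grown to confluence on rat tail collagen. One ATAC-seq library was used, replicate 2 in its title. ATAC-seq inserts sequencing adapters into accessible DNA, and a peak is a stretch with more insertions than the local background. Both RNA-seq libraries of the line carry transcript identifiers that no table used here pairs with genes, so no transcript level of a receptor is given. With 1 library and 1 cell line there was no group to compare and no test. Every interval below covers counting over genes or peaks only, and neighbouring genes are not independent.

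Olfactory receptors are G protein-coupled receptors that detect odorants on the cilia of sensory neurons in the nose. Each such neuron is known to express 1 allele of 1 receptor gene, while the other receptor genes stay packed in heterochromatin. The coding sequence lies in a single exon, and a gene extends further where upstream noncoding exons are annotated. Class I receptors (families OR51, OR52 and OR56 here) resemble the receptors of fish and lie together around the beta-globin genes. The remaining families on this chromosome are class II. Endothelial cells are not known for odorant detection, and the genes were examined as a large block of chromatin in a cell type where they are not known to work.

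Very few receptor genes carried accessible chromatin. At least 1 of the 106415 broad peaks lay within the gene or 1 kb of it for 11 of 168 members (6.55%, 95% Wilson interval 3.70% to 11.3%). Over all protein-coding genes the same measure gave 84.2%. The 11 genes were OR52K1, OR51D1, OR51L1, OR51B5, OR52N2, OR56A3 and OR56A1 of class I, and OR9Q1, OR4D9, OR8D1 and OR8B3 of class II. They held 25 peaks in all. None of the 111 members of at most 5 kb had a peak (an upper limit of 2.70% from 3 counts), and the 11 genes were among the 57 longer members (19.3%, interval 11.1% to 31.3%).

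Among the receptor genes with an annotated start window, only 1 had a peak over it. Start windows of 300 bases, from 250 bases before to 50 after an annotated start site, were found in RefSeq for 135 of the 168 members (138 windows). OR51D1, OR51B5 and OR8D1, which had peaks, have no such window, so peaks over their starts could not be counted. Only the window of OR52N2 overlapped a peak, which is 1 of 138 (0.725%, interval 0.128% to 3.99%), compared with 65.7% of 21873 windows of protein-coding genes outside the receptor family. The 250 bases before the start site are shown for OR52N2, for OR4D9 and OR9Q1, whose nearest peaks lay 267 and 325 bp from the start site, and for OR4C46, the member farthest from any peak. They are written 5′ to 3′ on the strand of the gene, from RefSeq GRCh38.p14, with CpG pairs in capitals.
OR52N2, chr11:5808674-5808923, plus strand: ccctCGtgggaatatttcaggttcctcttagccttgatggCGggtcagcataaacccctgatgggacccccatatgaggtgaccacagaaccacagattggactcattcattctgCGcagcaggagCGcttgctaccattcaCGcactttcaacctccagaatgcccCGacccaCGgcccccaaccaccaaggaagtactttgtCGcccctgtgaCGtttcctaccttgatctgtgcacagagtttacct
OR4D9, chr11:59511289-59511538, plus strand: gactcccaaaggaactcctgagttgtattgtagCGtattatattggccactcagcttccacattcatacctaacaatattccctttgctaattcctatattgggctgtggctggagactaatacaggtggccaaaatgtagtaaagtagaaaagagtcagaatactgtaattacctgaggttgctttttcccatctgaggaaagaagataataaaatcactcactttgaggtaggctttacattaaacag
OR9Q1, chr11:58023631-58023880, plus strand: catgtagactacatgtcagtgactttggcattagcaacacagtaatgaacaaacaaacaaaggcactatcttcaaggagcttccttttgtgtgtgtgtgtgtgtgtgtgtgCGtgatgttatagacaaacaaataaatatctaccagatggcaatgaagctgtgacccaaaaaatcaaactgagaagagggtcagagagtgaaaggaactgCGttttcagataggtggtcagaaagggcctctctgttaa
OR4C46, chr11:54603999-54604248, minus strand: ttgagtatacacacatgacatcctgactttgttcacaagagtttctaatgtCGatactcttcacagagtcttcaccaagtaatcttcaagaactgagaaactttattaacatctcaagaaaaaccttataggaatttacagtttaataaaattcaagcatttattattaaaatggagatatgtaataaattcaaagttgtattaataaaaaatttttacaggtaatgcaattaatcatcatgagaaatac

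The OR52N2 stretch has 9 CpG pairs and 54.0% GC, whereas the OR4C46 stretch has 1 CpG pair and 27.2% GC. OR4D9 has 1 CpG pair at 38.8% GC and OR9Q1 has 2 at 41.2%. Over the full 300 bases, OR52N2 held 14 CpG pairs, the highest number of the 138 receptor windows, and its GC content of 55.3% ranked second. OR51E1, a receptor known for expression in prostate, ranked first with 57.0% GC and had 3 CpG pairs, and its nearest peak was 2.16 kb away.

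The accessible sites at the 11 genes were mostly inside long gene extents. Of the 25 peaks, 20 lay wholly inside the gene, 2 (at OR52K1 and OR52N2) reached across an end and 3 (at OR51D1, OR4D9 and OR8D1) lay beyond one. Of the 13 peaks at genes with an annotated start window, 3 had their centre within 1 kb of a start site. These were at OR52N2 (at -128 bp), OR4D9 (at -413 bp) and OR9Q1 (726 bp after the site). The OR52N2 peak ran from 5808446 to 5809147 of chromosome 11, and reached 20.6 tags of pileup at a fold enrichment of 6.40. Pileup is the number of overlapping extended tags and fold is the enrichment over the local background, both the authors' values. The OR4D9 peak, from 59510980 to 59511272, was weak, at 11.6 tags of pileup and 3.73-fold enrichment. It ended 267 bp from the gene, so it counts through the 1 kb window, and OR4D9 was the only one of the 11 genes without a peak that overlaps its extent.

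OR51B5, the longest member with an extent of 165 kb, held 7 peaks. Their pileup ran from 11.2 to 37.2 tags, and the strongest lay from 5364208 to 5364777 with a fold of 5.01. No other gene is annotated within 1 kb of any of the 7 peaks. OR51B5 encloses 6 other receptor genes, and none of these had a peak. OR9Q1, with an extent of 158 kb, held 5 peaks of 13.6 to 19.6 tags, and it encloses 2 members without a peak. The long noncoding RNA gene LOC107984331 lies within 1 kb of the OR9Q1 peak near the start site, and LOC124902674, of the same kind, within 1 kb of another. OR56A3, with an extent of 79.8 kb, held 1 peak of 14.8 tags, within 1 kb of the pseudogene KRT18P58, and encloses 3 members without one. The extents of these 3 genes thus span 11 receptor genes that have no peak within 1 kb.

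Among the shorter genes, OR52K1 had the peak of highest pileup, 32.7 tags at a fold of 7.46, from 4492850 to 4493608 and 10.6 kb downstream of the start site. OR51D1 had peaks of 24.6 and 15.9 tags. The first of them lay outside the gene, within 1 kb, from 4636902 to 4637398 with a fold of 7.55. OR51D1 has no start window, so the place of this peak relative to a start site was not measured. OR51L1 had 1 peak of 13.4 tags located 9.75 kb after its start site, and OR56A1 had 1 of 14.2 tags beside a long noncoding RNA gene. OR8D1 had 3 peaks of 12.3, 12.3 and 14.5 tags. OR8B3 had peaks of 18.8 and 13.0 tags, and a receptor pseudogene, OR8X1P, and the long noncoding RNA gene LOC107984404 lie within 1 kb of the weaker one. Close to the window limit, OR52M1 lay 1.24 kb from a peak, OR51E1 2.16 kb and OR52H1 2.17 kb.

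The peaks at receptor genes were low in height but ordinary in fold. Their median pileup was 15.9 tags (range 11.2 to 37.2), compared with 21.6 over the whole list, and 19 of 25 were under that median. Their median fold was 4.51, compared with 4.49, with 12 of 25 under the median of the list. The median width was 328 bp, compared with 452 bp. Within the spans of the clusters as a whole, including the spacers and other genes, 106 peaks had a median pileup of 20.95 tags and a median fold of 4.77. The strongest of these 106, at OSBP, reached 121.6 tags.

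Gene length was considered because a longer gene has more room for a peak and because receptor genes are short, with a median extent of 1103 bp and 74 of 168 at most 1 kb. Weighting the other protein-coding genes by the lengths of the members, in 10 bins, gave a share of 50.8% with a peak. This weighted share rests on few genes at the short end, since the 3 shortest bins held 50 members and 15 comparison genes. With fixed classes of length it was 55.9%. Among genes of at most 1 kb, 127 of 365 others had a peak (34.8%, interval 30.1% to 39.8%) and 0 of 74 receptor genes did (interval up to 4.93%). From 5 to 10 kb the shares were 78.5% of 2372 and 5.41% of 37 (interval up to 17.7%). From 10 to 20 kb they were 86.9% of 3243 and 37.5% of 16 (interval 18.5% to 61.4%). Over 20 kb, 3 of 4 receptor genes had a peak, and the interval of 30.1% to 95.4% contained the 93.8% of other genes. The intervals of receptor and other genes were apart in each class up to 20 kb.

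**Figure D1:**
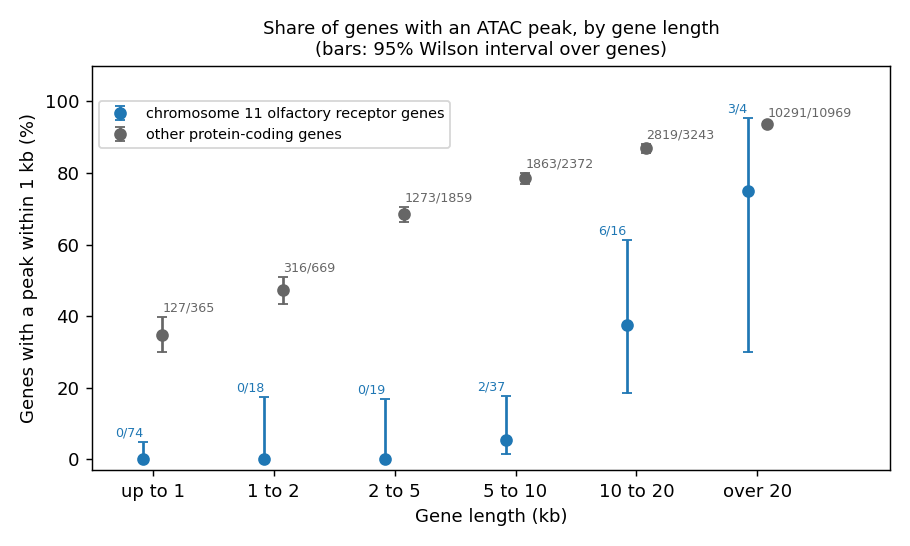
Share of genes with at least 1 peak within the gene or 1 kb (vertical axis, percent) by gene length class (horizontal axis, kb), for receptor genes of chromosome 11 (blue) and other protein-coding genes (grey). Bars are 95% Wilson intervals and labels give genes with a peak over all genes. The receptor genes stay at 0 up to 5 kb and reach 3 of 4 over 20 kb.

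Base composition differed as well. The start windows of the members had a median GC content of 37.0% (24.3% to 57.0%), compared with 62.7% in the windows of other protein-coding genes, and a median of 1 CpG pair compared with 21. No CpG pair at all was present in 37 of the 138 receptor windows (26.8%) and in 1.68% of the others. Windows of low GC had fewer peaks in other genes too. When the windows of other genes were weighted to the GC content of the receptor windows, 18.2% had a peak, against 0.725% of receptor windows. With 2 CpG pairs or fewer, 243 of 2042 windows of other genes had a peak (11.9%, interval 10.6% to 13.4%) and 0 of 112 receptor windows did. Length and GC were also combined, with a peak counted within the gene or 1 kb instead of over the start window. Among genes of at most 5 kb, not shorter than the shortest member and with GC within the quartiles of the members (32.8% to 42.0%), 36 of 134 others had a peak (26.9%, interval 20.1% to 34.9%). None of the 49 receptor genes in that stratum had one, and their interval reached 7.27%. These comparisons by GC and CpG were chosen after the values had been seen.

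**Figure D2:**
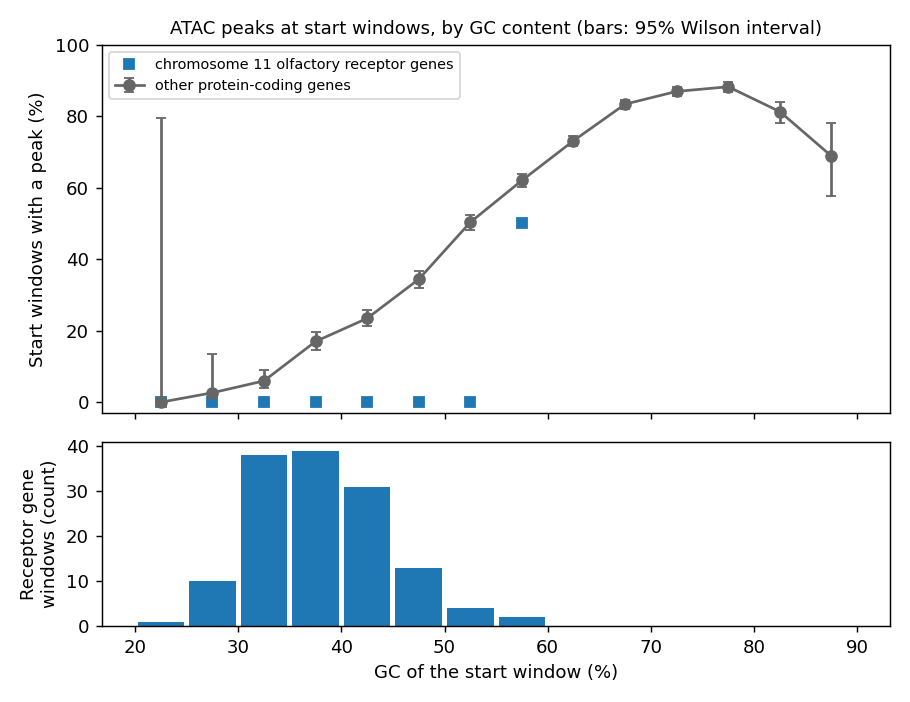
Top, share of start windows that overlap a peak (percent) by GC content of the window (percent), for other protein-coding genes (grey, with 95% Wilson intervals) and receptor genes of chromosome 11 (blue squares). Bottom, number of receptor windows per GC class. Receptor windows lie at the low end of GC, and the only one with a peak is in the class from 55% to 60%.

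Short sequence motifs were counted in the start windows on both strands. TAATTA, the core of homeodomain sites such as that of LHX2, was present in 34 of 138 receptor windows (24.6%), in 4.84% of all 35116 windows and in 14.5% of the 4468 other windows with GC between the quartiles of the members. All 138 receptor windows were counted, from 24.3% to 57.0% GC, so the 4468 windows do not match their spread of GC. TATAAA was present in 36.2% of receptor windows, in 11.5% of all windows and in 33.4% of the 4468, and it can overlap TAATTA by its end bases. TGANTCA, the AP-1 site, was present in 10.9%, 7.71% and 13.7%. The EBF palindrome was present in 2 receptor windows (1.45%), in 1.21% of all windows and in 0.358% of the 4468. Its shorter core, CCCNNGGG, which is part of every such palindrome, was present in 7.97%, 19.1% and 2.48%. The share of the core in receptor windows thus lay under that of all windows and over that of the 4468 windows. Neither difference was tested, and the second was not matched for GC. The motifs were chosen after the data had been seen, and the core was searched once the values of the palindrome were known. LHX2 and EBF factors are known activators of receptor genes in olfactory neurons. A match is a run of letters and not a site in use.

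The 168 members formed 10 clusters and 1 lone gene, OR2AT4, when genes up to 500 kb apart were joined. The clusters differed widely. The class I cluster from OR52B4 to OR52W1 holds 55 genes in 1.83 Mb, and 7 of them had a peak (12.7%, interval 6.30% to 24.0%). The 113 class II genes had 4 (3.54%, interval 1.39% to 8.75%), so the intervals of the classes overlapped. Among members over 5 kb the shares were 7 of 23 for class I and 4 of 34 for class II, again with overlapping intervals. A peak was found for 1 of 13 genes from OR9Q1 to OR5B21, for 1 of 8 from OR5AN1 to OR10V1 and for 2 of 22 from OR6X1 to OR8A1. No member had one among the 8 genes from OR2AG2 to OR2D3 or the 4 from OR5P2 to OR10A3.

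**Figure D3:**
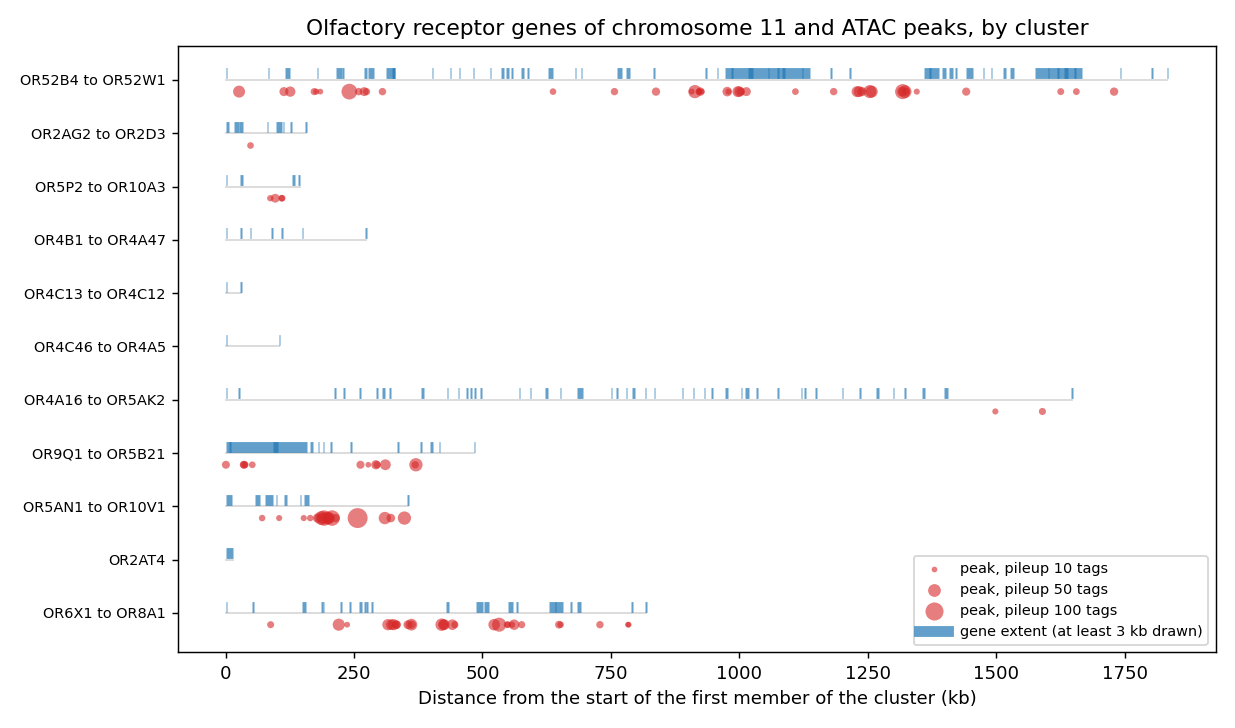
Gene extents (blue bars) and peaks (red dots, area in proportion to pileup) along each cluster, in kb from the start of its first gene. The OR52B4 to OR52W1, OR5AN1 to OR10V1 and OR6X1 to OR8A1 clusters carry groups of peaks between their genes, and the 46 genes from OR4A16 to OR5AK2 have 2 peaks near one end of their span.

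The clusters on either side of the centromere were nearly without peaks. The 57 genes of 4 clusters (OR4B1 to OR4A47, OR4C13 to OR4C12, OR4C46 to OR4A5, and OR4A16 to OR5AK2) had no peak within 1 kb, an upper limit of 5.26%. Between their genes, 2 peaks lay in 1.82 Mb (1.10 per Mb, exact 95% Poisson interval 0.133 to 3.97). Their extents are short, with 9 of 57 over 5 kb. These 9 had no peak either (interval up to 29.9%), compared with 11 of the 48 long members elsewhere (22.9%, interval 13.3% to 36.5%). The intervals overlapped, and the long members of both groups were not matched for length. The longest stretch of chromosome 11 without a peak, from 49526502 to 56841332 (7.31 Mb), held 49 receptor genes from OR4C13 to OR9G4, along with 71 receptor pseudogenes and 2 other protein-coding genes, TRIM48 and TRIM51. This stretch includes the centromere, and how uniquely reads can be placed in it was not tested. A neighbouring stretch of 1.35 Mb held the 7 genes from OR4B1 to OR4A47, and a single peak separated both stretches. Of all members, 56 of 168 (33.3%) lay in a stretch of at least 500 kb without a peak, compared with 12 of the 1129 other protein-coding genes of the chromosome (1.06%).

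The distance from a gene to its nearest peak also differed between clusters, in another order than the share with a peak. The median was 41.4 kb over all members (quartiles 11.3 and 324 kb), and 971 of the 1129 other protein-coding genes of chromosome 11 had a peak within 1 kb. It was 5.86 kb in the OR5AN1 to OR10V1 cluster, 16.4 kb from OR6X1 to OR8A1, 19.2 kb in the class I cluster and 710 kb from OR4A16 to OR5AK2. The farthest genes were OR4C46 at 2237 kb, OR4A5 at 2133 kb and OR4A16 at 1497 kb. The OR5AN1 to OR10V1 genes are thus close to peaks while 7 of 8 have none within 1 kb, since 6 of those 7 lay between 3.57 and 9.87 kb from one.

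**Figure D4:**
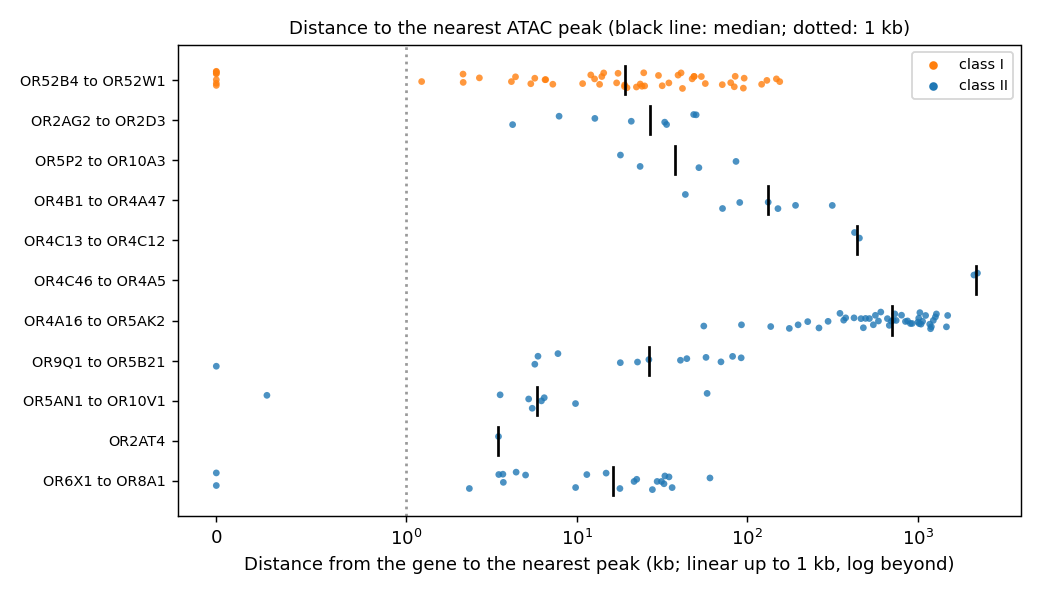
Distance from each receptor gene to the nearest peak (horizontal axis, kb, linear up to 1 kb and logarithmic beyond), by cluster, with class I genes in orange and class II in blue. Black lines are medians. The genes from OR4A16 to OR5AK2 have a median of 710 kb, and 11 genes lie to the left of the dotted line at 1 kb.

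Between the genes, peaks were sparse but present. The intervals between consecutive members, trimmed by 1 kb at each gene, held 82 peaks in 4.57 Mb, which is 18.0 per Mb (exact Poisson interval 14.3 to 22.3). Intervals made in the same way between other protein-coding genes of chromosome 11 held 46.0 per Mb (43.7 to 48.4). The receptor intervals, unlike these, contain other protein-coding genes, such as OSBP and PATL1 from OR5AN1 to OR10V1. With such genes and 1 kb around them left out, the receptor value was 16.7 per Mb (67 peaks). The values that follow keep them in. Without the 4 clusters beside the centromere the receptor value was 29.1 per Mb (23.1 to 36.2), so the Poisson intervals still did not overlap. Single clusters ran from 0 between the 7 genes from OR4B1 to OR4A47 (an upper limit of 11.8 per Mb) and 1.39 per Mb from OR4A16 to OR5AK2 to 56.0 per Mb from OR5AN1 to OR10V1 (32.0 to 90.9). Most peaks of the OR5AN1 to OR10V1 cluster lay in a single interval, between OR4D9 and OR10V1, which holds OSBP and PATL1. The class I cluster had 21.7 per Mb (14.5 to 31.4), the OR9Q1 to OR5B21 cluster 25.2 (10.1 to 51.9) and the OR6X1 to OR8A1 cluster 35.8 (upper bound 53.3). The interval lay under the value for other genes of the chromosome in 4 clusters, namely the class I cluster, OR4B1 to OR4A47, OR4C46 to OR4A5 and OR4A16 to OR5AK2. In the other clusters with more than 1 gene it included that value.

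Pooled over clusters, the density rose at their edges. For the 7 clusters of at least 5 genes, it was 18.3 per Mb inside (14.9 to 22.2), 38.6 in the first 100 kb outside (29.0 to 50.3), 55.0 from 100 to 200 kb and 63.6 from 200 to 300 kb. From 800 to 900 kb it was 28.9 per Mb (20.0 to 40.4), and its interval overlapped that of the inside. Flanks on both sides were added together, leaving out stretches that belong to another cluster. The inside value pools unlike clusters. Beside the centromere, the span from OR4B1 to OR4A47 held 0 per Mb and that from OR4A16 to OR5AK2 1.21. The span from OR5AN1 to OR10V1 held the most, 47.9 per Mb, with most of its peaks between OR4D9 and OR10V1. Whether the rise holds without the clusters beside the centromere, or in each cluster, was not tested.

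**Figure D5:**
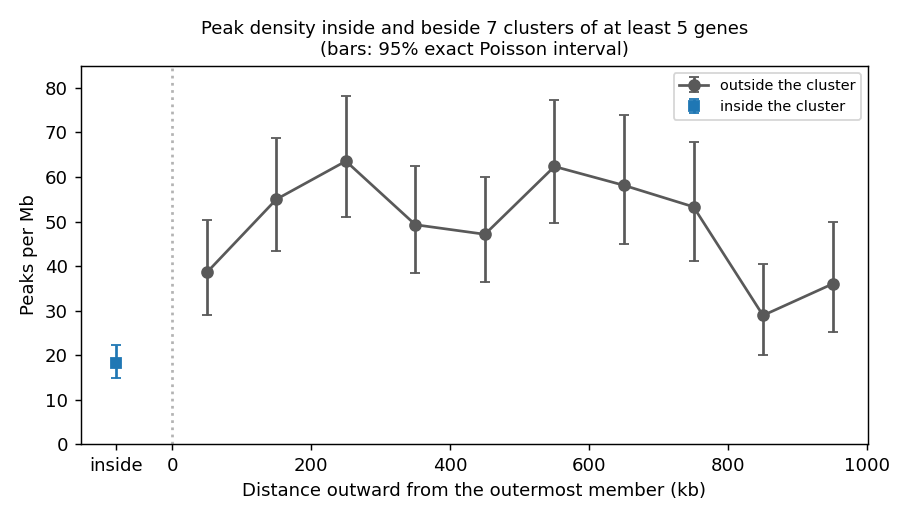
Peaks per Mb inside 7 receptor gene clusters (blue square) and in steps of 100 kb outward from the outermost gene (grey), with exact 95% Poisson intervals. The inside value is 18.3 and the first outer step is 38.6.

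Other genes inside the clusters had peaks where the receptors did not. Of 20 such protein-coding genes, 10 had a peak within the gene or 1 kb. TRIM genes encode ubiquitin ligases, several with antiviral roles, and 7 of the 8 inside the clusters had a peak, the exception being TRIM51 beside the centromere. Some of the 7 overlap in extent and share peaks, so they are not 7 separate cases. At TRIM68 the highest pileup was 75.7 tags, at TRIM5 69.5, at TRIM34 and the readthrough gene TRIM6-TRIM34 52.6 (1 shared peak), at TRIM22 49.8, at TRIM21 44.3 and at TRIM6 37.3. OSBP, which encodes an oxysterol-binding protein, had 121.6 tags from 59615454 to 59616583, PATL1 of messenger RNA decay had 47.2 and VWA5A had 42.2. Each of these was above the 37.2 tags of the highest peak at a receptor gene. The 5 globin genes HBB, HBD, HBG1, HBG2 and HBE1, active in red blood cell precursors, had no peak within 1 kb, and the nearest lay 4.42 kb from HBE1 and 20.3 kb from HBB. MMP26, a matrix metalloproteinase gene with an extent of 288 kb, had none either, and the nearest was 12.04 kb away.

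Receptor genes elsewhere in the genome gave a similar picture. Of the 221 members of the family on other chromosomes, 27 had a peak within 1 kb (12.2%, interval 8.53% to 17.2%), an interval that overlapped that of chromosome 11. Among those of at most 5 kb it was 3 of 110 (2.73%, interval 0.932% to 7.71%), and among longer ones 24 of 111 (21.6%, interval 15.0% to 30.2%). The bitter taste receptor genes TAS2R had a peak in 0 of 24 (upper limit 12.5%).

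The genes of the machinery that serves the receptors in the nose were measured in the same way. Of 29 genes, 25 had a peak within the gene or 1 kb (86.2%, interval 69.4% to 94.5%), close to the 84.2% of all protein-coding genes. In the transduction group it was 9 of 11, among them GNAL, the olfactory G protein subunit (67.5 tags), and CNGB1, a channel subunit (55.5 tags). OMP, the marker protein of mature olfactory neurons, and CNGA2, the principal channel subunit, had none. CNGA4, a channel subunit gene on chromosome 11, had a peak of 104.4 tags, and another gene, FHIP1B, lies within 1 kb of that peak. For receptor transport, RTP2 and REEP1 had peaks and RTP1 had none. Of the transcription factors and cofactors, 6 of 7 had one, with EMX2 as the exception. LDB1, the LIM domain cofactor, had 52.3 tags and LHX2 had 26.2. All 8 genes for silencing and feedback of receptor choice had peaks, led by EIF2AK3, the PERK kinase, with 97.9 tags and CBX5, the heterochromatin protein HP1 alpha, with 90.2. Many of these genes are long or act in all cells. Other genes also lie within 1 kb of the peaks quoted for GNAL (LOC124904251), LDB1 (PPRC1), EIF2AK3 (EIF2AK3-DT) and CBX5 (SCAT2 and HNRNPA1).

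As a check of the label, all 10 endothelial markers had a peak within the gene or 1 kb, among them CDH5 with 68.6 tags and VWF with 95.7. The share was 6 of 10 for markers of olfactory sensory neurons, with OMP, CNGA2, RTP1 and STOML3 at none, 6 of 7 for fibroblast and mural markers and 4 of 4 for neuronal markers. A peak within a long gene does not show that the gene is active, so these counts separate the cell types poorly. The library had 22188172 tags after the caller kept 1 tag per position.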

How the data were processed

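Per the file headers, the authors called broad peaks on 1 ATAC library with MACS version 2.2.7.1, using no control, a tag shift of -100 bp, an extension to 200 bp, q limits of 0.05 (strong regions) and 0.1 (broad regions), single-end mode, 1 tag per position (22188172 of 31532245 tags) and an effective genome size of 1870000000 bp, a mouse preset. The deposited values are the pileup signal, the fold enrichment ratio over a local background within 10 kb, and −log10 p and q of each peak. They describe peaks within this list only. Per the submitters' processing notes, Bowtie2, SAMtools 1.13, Picard and MACS2 were used and the builds were GRCh38 and mm10. How reads with several placements were treated is not given in the sources used here. No listed peak was lower than 8.0 tags, so absence from the list means that no accessible site was detectable with this number of tags, not that the gene is closed.

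Peaks were placed on RefSeq genes of GRCh38.p14. On chromosome 11, 67.2% of 1144 start windows of other protein-coding genes overlapped a peak, and at most 7.78% did after moving them by 2 to 50 kb. A peak counted with an overlap of at least 1 bp, density was counted by peak centres, and clusters joined genes up to 500 kb apart. Python 3.11.15, pandas 2.3.3 and scipy 1.17.1 were used, and the functions were tested on simulated data. Named genes are all members with a peak, the 3 nearest and 3 farthest without one, the 10 other genes of highest pileup in the clusters and the globin genes. The members and lists were chosen with earlier results of these data known. The RNA tables were not used.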

Additional observations from a re-analysis of the deposited data

How the results depend on the processing

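Of 58 alternative values, 40 stayed within the 95% interval of the reported value, or within 1.5-fold for the number of peaks, and 18 did not. With a window of 10 kb the share of receptor genes with a peak was 24.4%, that of length-weighted other genes 68.1% and the number of peaks 57. With fold of at least 4 the weighted share was 35.3%. With the whole peak list, the share over all other genes in the length range, unweighted, was 85.8%. Keeping as many peaks by highest pileup gave a share of 3.57%, 12 peaks, a median pileup of 22.6 tags, a median distance of 80.7 kb and 10.9 peaks per Mb between genes. That density was 13.6 with −log10 q of at least 5, 13.1 with the fold filter, 25.9 when genes up to 1 Mb apart were joined and 29.1 without the 4 clusters beside the centromere. Members of at most 5 kb had a share of 0, 0 peaks and a median distance of 70.2 kb, and without OR51B5, OR9Q1 and OR56A3 the number of peaks was 12. Stricter peak filters keep fewer peaks by construction. In each setting for which both shares were computed, that of receptor genes was below that of the other genes. The last choice, that of the 4 clusters, the 3 genes on another scaffold and the fixed length classes were added once the data had been seen. No paired analysis was possible because every value comes from 1 ATAC library.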

Other observations

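Few receptor pseudogenes of the chromosome, inside or outside the clusters, had a peak. On chromosome 11, 7 of 205 receptor pseudogenes had a peak within 1 kb (3.41%, interval 1.66% to 6.88%), namely OR4F2P, OR51AB1P, OR52H2P, OR5BC1P, OR6M2P, OR8X1P and OR8B9P, which are all shorter than 1 kb. For other pseudogenes of at most 5 kb the share was 11.4% of 14881. None of the 111 intact receptor genes of at most 5 kb had one, and the interval of the pseudogenes overlapped that of the intact genes, which reached 3.35%. On other chromosomes the receptor genes of at most 5 kb with a peak were OR4F29, OR2A4 and OR2F2. These genes were named after their values were seen.

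Of other gene families, the MS4A and MRGPR genes had shares between those of the receptors and of all genes. A peak was found at 5 of 16 MS4A genes (31.3%, interval 14.2% to 55.6%), which encode membrane proteins of blood cells, and at 3 of 8 MRGPR genes (37.5%, interval 13.7% to 69.4%), which encode receptors of sensory neurons and mast cells. Over receptor families, family 5 had the most members, 34, and none with a peak, and its median distance to a peak was 359 kb. Family 10 had 0 of 16 at a median distance of 25.7 kb, and family 56 had 2 of 7 at 10.9 kb.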
